A study of Homo sapiens with 6 samples.

Results

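The genes described here are 32 genes of the response to low oxygen: the HIF transcription factors, the enzymes that sense oxygen for them, and genes that HIF switches on, VEGFA among them. They were taken by symbol from the deposited table of raw counts, and all 32 were found among its 60564 genes. RNA sequencing was done on CAL27, a long-established line of human tongue cancer cells (squamous carcinoma). Of 6 libraries, 3 came from cells carrying a lentivirus with CNTNAP2-203, a transcript of CNTNAP2 (genotype label CNTNAP2-203 OE, for overexpression, written OE below). The other 3 came from cells with a control vector (genotype label WT, named EGFP in the sample descriptions). Cells of both kinds were kept under puromycin (5 μg/ml, 2 weeks) to select those with the virus, and grown in DMEM with fetal bovine serum. The labels name no oxygen level, and they do not say whether a line is a pool or a single clone. Separate cultures are not stated for the libraries within a group, so the p-values below rest on differences among these libraries alone, and those may be technical.

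In normal oxygen, the prolyl hydroxylases EGLN1 and EGLN3 mark the alpha subunits HIF1A and EPAS1 (HIF-2 alpha), and the ubiquitin ligase subunit VHL then targets them for destruction. In low oxygen the alpha subunits accumulate, pair with ARNT and bind the core sequence ACGTG or GCGTG near their target genes. Control of the alpha subunits acts largely on the protein, so messenger RNA levels of HIF1A and EPAS1 do not give HIF activity. In squamous carcinoma this response is known for new vessel growth, acid export, glucose uptake and stiffening of collagen.

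CNTNAP2 had raw counts of 0, 3 and 4 in control replicates 1, 2 and 3 and of 140022, 156055 and 119280 in OE replicates 1, 2 and 3, in the direction of the labels. Total counts ranged from 36843190 to 42412703, with the lowest in OE replicate 3. This library also had the fewest genes with a count (25336, against 26418 to 27002) and the lowest TMM factor (0.9505, against 0.9993 to 1.019), and its levels followed transcript length. Genes whose longest transcript was in the upper quartile of length (4761 bases or more) had a median log2 level of -0.26 relative to the control mean in OE replicate 3, and those in the lower quartile (1736 bases or less) one of 0.236. In the other 5 libraries both medians lay between -0.0467 and 0.0621. Of the tested hypoxia genes, 10 were in the upper and 3 in the lower quartile. The 10 markers of squamous epithelium summed to between 4207 and 4708 FPKM (fragments per kilobase of transcript, scaled to sequencing depth) in controls and between 4039 and 4793 FPKM in OE. The sums were 5.36 to 6.01 FPKM over 6 fibroblast markers, 22.1 to 30.2 FPKM over 6 leukocyte markers, nearly all of it CD14 and CD68 with PTPRC at 0 to 0.0093 FPKM, and 0.758 to 1.47 FPKM over 6 endothelial markers, with KDR at 0 in all libraries. In each of the 4 lists the ranges of the 2 groups overlapped, and none of the squamous markers passed the test. Within the squamous list, KRT17 and DSG3 had every OE library below every control (log2 fold changes -0.57 and -0.64, adjusted p = 0.0848 and 0.105), and KRT5 and EPCAM every one above (0.34 and 0.29, adjusted p = 0.189 and 0.290). In FPKM, TP63, CDH1, DSG3 and DSP were each lowest in OE replicate 3, and KRT14, EPCAM and SFN were highest there. TP63 had 7.34 FPKM in that library against 20.7 to 28.8 FPKM in the others, and DSP had 48.5 FPKM against 79.8 to 112 FPKM. The part of these levels in the results below was not tested. In such bulk samples, fewer cells that express a gene and less RNA per cell cannot be told apart.

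Of the 32 hypoxia genes, 4 fell in OE and none rose: VEGFA, the main growth factor for blood vessels, NDRG1, a hypoxia-induced regulator of differentiation and metastasis, CA12, a cell-surface carbonic anhydrase, and BHLHE40, a transcriptional repressor. NDRG1 had the largest fall, 2.34-fold, followed by VEGFA, CA12 and BHLHE40. The classic marker of hypoxia CA9, the glucose transporter SLC2A1 and every oxygen sensor did not pass the test. The calls are those of edgeR's quasi-likelihood test at an adjusted p under 0.05 over 18786 genes, of which 31 were hypoxia genes. SLC2A3 was left out by the filter on low counts. Across all tested genes, 1.39% were called, 0.596% as lower and 0.798% as higher. At an unadjusted p under 0.05, 9 of the 31 were lower and 2 higher, against 7.84% and 9.41% of all tested genes. None of the 31 was called higher by DESeq2, limma-voom or limma on the deposited log2 values, and these 3 tools called 6, 3 and 3 lower. Over all genes to which they gave an adjusted p, DESeq2 called 2.85% lower and 4.26% higher, limma-voom 0.538% and 0.703%, and limma on the deposited log2 values 0.431% and 0.447%. The median log2 fold change over the 31 was -0.24, against -0.0038 over all tested genes, and 24 of the 31 were negative, as were 50.4% of all tested genes. These counts are a description.

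VEGFA had 587, 551 and 579 CPM in control replicates 1, 2 and 3 (counts scaled to a common depth, with TMM factors that correct for library composition). In OE replicates 1, 2 and 3 it had 344, 309 and 285 CPM. The lowest control was thus well above the highest OE library, and the 3 controls lay close together. The group means were 572 ± 18.8 and 313 ± 30.0 CPM (SD, n = 3 each), a 1.83-fold lower level in OE (log2 fold change -0.87, SE 0.103, edgeR quasi-likelihood adjusted p = 0.0160). VEGFA lies on the plus strand of chromosome 6 from 43770184 to 43786487 (GENCODE 29, GRCh38), and it is the secreted ligand of the endothelial receptors FLT1 and KDR.

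NDRG1 had 397, 388 and 472 CPM in the 3 controls and 157, 156 and 223 CPM in the 3 OE libraries. The groups were far apart, and OE replicate 3 was the highest of its group, unlike for VEGFA. Means were 419 ± 46.0 and 179 ± 38.2 CPM, which is 2.34-fold lower in OE (log2 fold change -1.23, SE 0.163, adjusted p = 0.0211). CA12 had 26.5, 25.9 and 28.3 CPM in the controls and 16.9, 15.8 and 13.4 CPM in OE. It was 1.75-fold lower (log2 fold change -0.81, SE 0.129, adjusted p = 0.0363), again with no overlap of the groups. CA12 is on the minus strand of chromosome 15 from 63321378 to 63382161, and its enzyme turns carbon dioxide and water into bicarbonate and acid at the cell surface. BHLHE40 had 173, 181 and 183 CPM in the controls and 129.7, 103 and 122.8 CPM in OE (log2 fold change -0.59, SE 0.110, adjusted p = 0.0495). It lies on the plus strand of chromosome 3 from 4979116 to 4985323, and the call is close to the threshold although no OE library reached the lowest control.

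**Figure D1:**
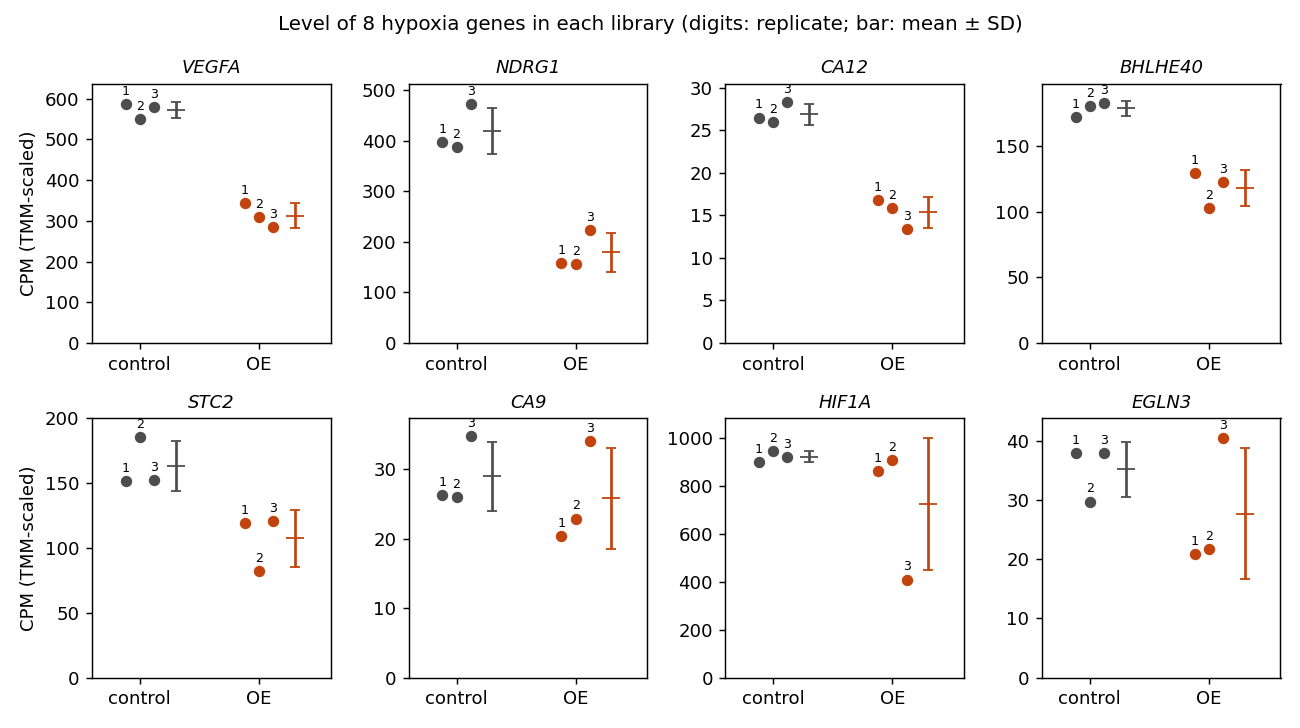
TMM-scaled CPM (vertical axes, from 0) of 8 hypoxia genes in the 3 control (grey) and 3 OE (orange) libraries, with replicate numbers as digits and bars for the mean ± SD. VEGFA, NDRG1, CA12, BHLHE40 and STC2 do not overlap between the groups, while CA9, HIF1A and EGLN3 overlap, with OE replicate 3 far from the other OE libraries in the last 2 of these.

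All 4 calls stood without OE replicate 3 (adjusted p = 0.0036 to 0.0346). Leaving out any other library, control replicate 1, 2 or 3 or OE replicate 1 or 2, ended each of the 4 calls (adjusted p = 0.0502 to 0.222), while the log2 fold changes stayed within -0.95 to -0.81 for VEGFA, -1.42 to -1.14 for NDRG1, -0.88 to -0.72 for CA12 and -0.66 to -0.50 for BHLHE40. BHLHE40 had an adjusted p = 0.0502 with limma-voom and CA12 one of 0.0530 with limma on the deposited log2 values. The longest transcripts of VEGFA (12167 bases) and CA12 (6413 bases) are in the upper quartile of length. Those of NDRG1 (3983 bases) and BHLHE40 (3473 bases) are in neither the upper nor the lower quartile. VEGFA and CA12 had their lowest level in OE replicate 3, and the part of length in this was not tested. After trends with GC content and transcript length were removed from each library, all 4 passed, and the log2 fold change of VEGFA was -0.69.

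The promoter windows of BHLHE40 and CA12, which fell, are shown beside those of CA9, which did not pass, and PFKFB4, the hypoxia gene with the highest log2 fold change. Each is the 250 bases before the start of the RefSeq transcript (GRCh38.p14), written 5′ to 3′ on the strand of the gene. The RefSeq starts differ from the GENCODE 29 gene bounds. The windows of BHLHE40, CA12 and PFKFB4 lie inside those bounds, and that of CA9 lies partly inside. Distances below count from the RefSeq start. Capitals mark ACGTG and GCGTG on either strand, which read CACGT and CACGC where the match is on the other strand.
BHLHE40 (chr3:4979187-4979436, plus strand): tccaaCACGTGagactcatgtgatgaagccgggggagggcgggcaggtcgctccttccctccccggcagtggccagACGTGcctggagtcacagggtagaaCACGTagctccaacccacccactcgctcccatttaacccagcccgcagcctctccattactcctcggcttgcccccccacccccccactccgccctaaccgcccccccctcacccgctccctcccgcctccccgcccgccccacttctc
CA12 (chr15:63381847-63382096, minus strand): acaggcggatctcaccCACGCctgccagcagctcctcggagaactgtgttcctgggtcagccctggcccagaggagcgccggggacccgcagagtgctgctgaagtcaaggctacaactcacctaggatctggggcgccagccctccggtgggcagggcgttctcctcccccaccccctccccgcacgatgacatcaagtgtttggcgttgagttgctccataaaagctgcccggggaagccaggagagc
CA9 (chr9:35673678-35673927, plus strand): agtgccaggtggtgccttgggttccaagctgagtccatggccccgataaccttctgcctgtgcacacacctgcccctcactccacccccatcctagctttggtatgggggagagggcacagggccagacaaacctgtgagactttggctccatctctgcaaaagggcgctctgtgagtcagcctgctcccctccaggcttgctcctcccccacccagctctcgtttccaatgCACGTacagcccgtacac
PFKFB4 (chr3:48556804-48557053, minus strand): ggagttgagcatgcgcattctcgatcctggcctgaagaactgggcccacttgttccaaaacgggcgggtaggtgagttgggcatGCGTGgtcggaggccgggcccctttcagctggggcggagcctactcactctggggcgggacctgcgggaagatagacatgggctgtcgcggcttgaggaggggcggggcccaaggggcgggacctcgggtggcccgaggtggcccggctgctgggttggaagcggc

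In BHLHE40 there were 4 matches of ACGTG, whose first bases in the printed sequence lay 245, 244, 174 and 149 bases before the start. The first 2 overlap in the palindrome CACGTG, the E-box that BHLHE40 protein itself is known to bind. CA12 had 1 match of GCGTG at 234 bases, CA9 1 of ACGTG at 18 bases and PFKFB4 1 of GCGTG at 166 bases before the start. Windows were found for 25 of the 32 genes, 31 windows in all because some genes have several starts. Windows of KDM3A overlap each other, as do some of LOX, so the counts of windows repeat some matches. By gene, 20 of the 25 had a match. VHL, VEGFA, NDRG1, BNIP3L, LOXL2, SLC2A3 and HILPDA had no window, so their promoters were not searched for the motifs. Of the 31 windows, 14 (45.2%) held ACGTG and 15 (48.4%) held GCGTG, against 18.5% and 32.2% of all 35116 windows, and 24 (77.4%) held either, against 43.2%. The median GC content was 68.4% in these 31 windows and 58.0% in all, and both motifs hold CG, so the shares are set beside windows of another base composition. ARNT, EGLN3, HIF1AN, P4HA2 and SLC2A1 had no match in these 250 bases. A match is a description of the letters and not a binding site.

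Among the oxygen sensors and HIF subunits, none of 7 tested genes passed in edgeR (0 at an unadjusted p under 0.05, and 0 by DESeq2 and both limma tests). HIF1A, the alpha subunit of HIF-1, had 898, 945 and 918 CPM in the controls and 860, 905 and 409 CPM in OE. OE replicates 1 and 2 were at the level of the controls, and OE replicate 3 alone was far lower. The log2 fold change of -0.34 (SE 0.284, adjusted p = 0.579) was -0.06 without that library. HIF1A was also the most abundant of the 32 per length, at 148 ± 4.42 FPKM in controls. HIF1A shares its locus with HIF1A-AS1 and HIF1A-AS2 on the other strand, and the TruSeq v2 kit named in the labels keeps no record of strand.

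EPAS1 had 204, 216 and 217 CPM in the controls and 220, 241 and 171 CPM in OE, so the OE libraries lay on both sides of the controls (log2 fold change -0.01, SE 0.134). ARNT, the partner that both alpha subunits need, had 45.8, 36.6 and 47.7 CPM against 46.6, 50.6 and 34.6 CPM, with full overlap. VHL had 16.5, 20.3 and 16.3 CPM against 16.4, 14.961 and 12.2 CPM, with the lowest value in OE replicate 3 (log2 fold change -0.29, SE 0.159, adjusted p = 0.401).

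EGLN1, the main prolyl hydroxylase in normal oxygen, had 36.3, 42.1 and 41.4 CPM in the controls and 35.0, 36.0 and 35.9 CPM in OE. Of the 7 oxygen-sensing genes, only EGLN1 had groups that did not overlap, with every OE library below every control, as in 12.8% of all tested genes. The gap for EGLN1 was small (log2 fold change -0.16, SE 0.102, adjusted p = 0.456). Its longest transcript (7097 bases) is in the upper quartile of length. The log2 fold change of EGLN1 ranged from -0.20 to -0.053 over the alternatives that kept all libraries. EGLN3, a prolyl hydroxylase that HIF itself induces, had 37.9, 29.7 and 37.9 CPM in the controls and 20.9, 21.7 and 40.5 CPM in OE. OE replicates 1 and 2 lay below all controls and OE replicate 3 above them (log2 fold change -0.35, SE 0.269, adjusted p = 0.550). Without OE replicate 3, EGLN3 was called lower (log2 fold change -0.73, adjusted p = 0.0403). HIF1AN, the asparaginyl hydroxylase that blocks binding of coactivators to HIF, had 111, 104 and 108 CPM against 106, 110.03 and 88.4 CPM (log2 fold change -0.09, SE 0.109).

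**Figure D2:**
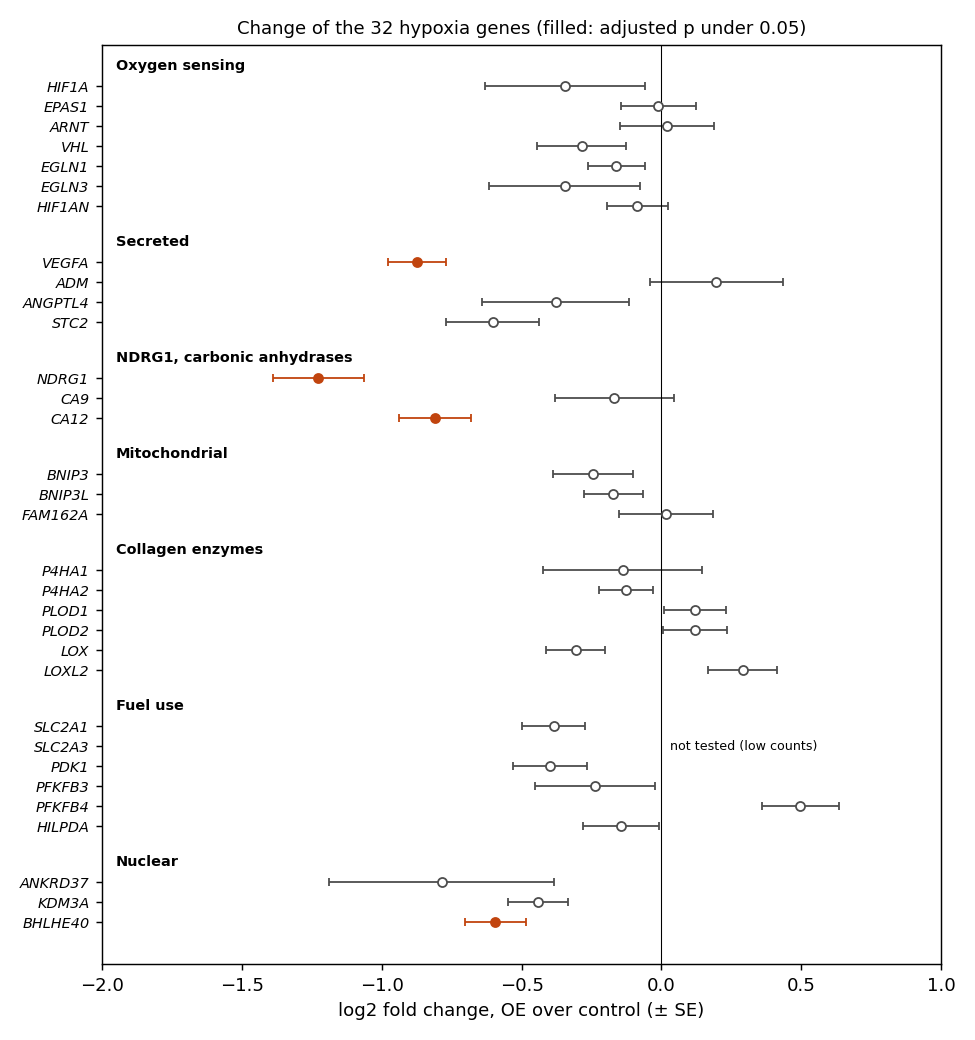
Log2 fold change of OE over control (horizontal axis) with its SE for the 32 genes, grouped by role; filled orange points passed at an adjusted p under 0.05, and open grey points did not. VEGFA, NDRG1, CA12 and BHLHE40 are the 4 filled points, from -1.23 to -0.59, and PFKFB4 is the farthest to the right at 0.50.

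The other secreted factors besides VEGFA did not pass. STC2, a glycoprotein hormone of the stanniocalcin family, had 152, 185 and 153 CPM in the controls and 119, 82.1 and 121 CPM in OE. Its groups did not overlap, but OE replicate 2 was well below the other OE libraries (log2 fold change -0.60, SE 0.166, adjusted p = 0.130). DESeq2 called it lower (adjusted p = 0.0236). ADM, the vasodilator peptide adrenomedullin, had 147, 79.8 and 144 CPM against 145, 122 and 158 CPM, and the low control replicate 2 gave it a positive log2 fold change of 0.20 (SE 0.237) that was -0.04 without that library. ANGPTL4, an inhibitor of lipoprotein lipase, had only 53 to 103 counts in a library and a log2 fold change of -0.38 (SE 0.262).

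CA9, the carbonic anhydrase most used as a marker of hypoxia in tumours, had 26.3, 25.9 and 34.7 CPM in the controls and 20.4, 22.9 and 34.1 CPM in OE. OE replicates 1 and 2 were below every control, and OE replicate 3 was close to the highest control (log2 fold change -0.17, SE 0.213, adjusted p = 0.725). Per length, CA9 was above CA12 in both groups, at 14.96 ± 2.52 against 3.18 ± 0.133 FPKM in controls and 12.9 ± 3.19 against 1.77 ± 0.255 FPKM in OE. The fall in CA12 thus concerned the less abundant of these transcripts, and protein was not measured here. Whether CA12 and CA9 changed by different amounts was not tested.

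The mitochondrial members overlapped between the groups. BNIP3, a receptor for the removal of mitochondria, had 62.4, 61.7 and 76.0 CPM against 49.7, 52.7 and 66.6 CPM (log2 fold change -0.24, SE 0.144). The annotation lists 39 pseudogenes named after BNIP3, between which reads can be split, so its value is uncertain. BNIP3L, its relative with the same role, had a log2 fold change of -0.17 (SE 0.105), and FAM162A, a small mitochondrial protein, one of 0.02 (SE 0.168) whose sign changed with the processing.

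Of 6 genes for collagen-modifying enzymes, none passed in edgeR or the other 3 tests, and 3 had a negative and 3 a positive log2 fold change. At an unadjusted p under 0.05, 1 was lower and 1 higher, against 7.84% and 9.41% of all tested genes. LOX, which cross-links collagen and elastin, had 31.1, 33.0 and 34.5 CPM in the controls and 24.9, 27.5 and 27.3 CPM in OE. Its relative LOXL2 had 89.3, 77.6 and 82.2 CPM against 96.04, 118 and 90.8 CPM. The groups of both genes did not overlap, in opposite directions, with log2 fold changes of -0.31 (SE 0.105, adjusted p = 0.196) and 0.29 (SE 0.124, adjusted p = 0.283). Across all tested genes, 12.8% had all OE libraries below all controls and 13.7% had them above, against 11 and 2 of the 31 hypoxia genes. P4HA1 and P4HA2, subunits of collagen prolyl hydroxylase, had log2 fold changes of -0.14 (SE 0.285) and -0.13 (SE 0.0958). PLOD1 and PLOD2, the collagen lysyl hydroxylases, both had 0.12 (SE 0.112 and 0.115). P4HA1 varied most within groups, from 50.5 to 94.03 CPM in the controls and from 52.1 to 84.7 CPM in OE.

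Genes of fuel use gave no call, with 5 of 6 tested. An unadjusted p under 0.05 was reached by 2 lower and 1 higher, against 7.84% and 9.41% of all tested genes. None was called by DESeq2 or by either limma test. SLC2A1, the main glucose transporter of carcinoma cells, had 353, 365 and 419 CPM in the controls and 287, 266 and 318 CPM in OE. PDK1, a mitochondrial kinase that inhibits pyruvate dehydrogenase, had 47.4, 58.0 and 64.1 CPM against 46.1, 39.4 and 43.1 CPM. In both genes every OE library was below every control, for PDK1 by a narrow gap, and neither passed (log2 fold changes -0.39, SE 0.112, and -0.40, SE 0.133, adjusted p = 0.145 and 0.187). The longest transcript of PDK1 (14193 bases) is in the upper quartile of length. Its log2 fold change ranged from -0.44 to -0.18 over the alternatives that kept all libraries, and the part of length was not tested. PFKFB4, which makes the activator of phosphofructokinase, had 8.85, 7.73 and 8.73 CPM in the controls and 11.2, 13.2 and 11.3 CPM in OE, the opposite direction (log2 fold change 0.50, SE 0.138, adjusted p = 0.133). Its relative PFKFB3 had 22.8, 23.6 and 23.2 CPM in the controls and 22.3, 23.7 and 13.0 CPM in OE, so that only OE replicate 3 was low. HILPDA, which promotes lipid droplets, had a log2 fold change of -0.15 (SE 0.136). SLC2A3, the neuronal-type glucose transporter, was close to undetected, with 0 to 15 counts in a library. In control replicate 3 it had 0 counts, where 3 counts would be 0.0710 CPM.

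The 3 nuclear members had all OE libraries below all controls, as did 12.8% of all tested genes. KDM3A, a histone H3 lysine 9 demethylase that HIF induces, had 62.9, 64.5 and 65.1 CPM in the controls and 51.5, 48.4 and 41.9 CPM in OE. The controls agreed closely, yet the difference did not pass (log2 fold change -0.44, SE 0.106, adjusted p = 0.0969), although it did by DESeq2 (adjusted p = 0.0247). The longest transcript of KDM3A (8741 bases) is in the upper quartile of length. Its log2 fold change ranged from -0.48 to -0.32 over the alternatives that kept all libraries. ANKRD37, a small ankyrin repeat protein, had 2.90, 3.01 and 2.37 CPM against 1.79, 0.678 and 2.34 CPM. These rest on 28 to 119 counts a library, and OE replicate 3 was close to the lowest control (log2 fold change -0.79, SE 0.403, adjusted p = 0.366).

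**Figure D3:**
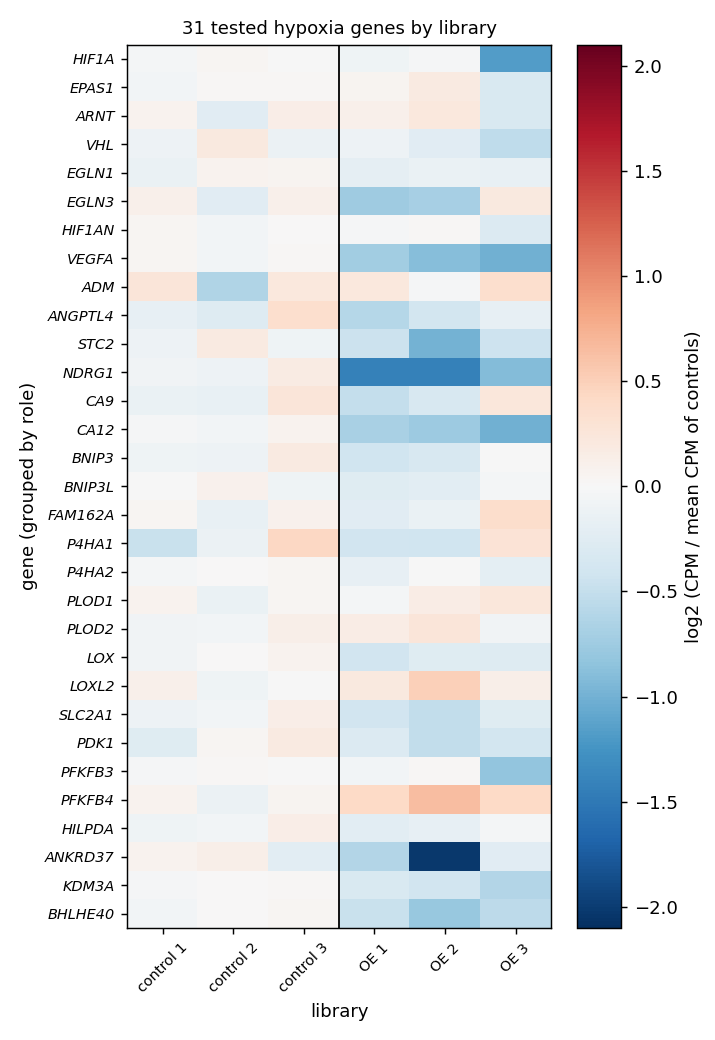
Log2 ratio of each library's CPM to the mean CPM of the controls (colour, blue lower and red higher) for the 31 tested genes (rows, by role) in the 6 libraries (columns). VEGFA, NDRG1, CA12 and BHLHE40 are blue in each OE library, and OE replicate 3 differs from OE replicates 1 and 2 in HIF1A, EGLN3 and PFKFB3.

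Library by library, the median of the 31 genes relative to the control mean was -0.26, -0.24 and -0.22 on the log2 scale in OE replicates 1, 2 and 3. The controls, in the same order, had -0.04, -0.05 and 0.06. Of the 31 genes, 25, 22 and 22 were below the control mean in the OE libraries and 21, 18 and 7 in the controls. The OE medians thus lay close together and below those of the controls, while control replicate 3 had the fewest genes below the control mean. The median log2 fold change was -0.16 without control replicate 3 or without OE replicate 1, so the size of this shift depends on single libraries.

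Per length, the 32 genes spanned a wide range. After HIF1A, the most abundant in controls were SLC2A1 at 71.1 ± 6.40 FPKM, ADM at 44.0 ± 13.4 FPKM, BHLHE40 at 42.1 ± 1.31 FPKM, NDRG1 at 35.3 ± 3.74 FPKM and VEGFA at 32.8 ± 0.947 FPKM. ADM and BHLHE40 did not differ beyond their spread, nor did NDRG1 and VEGFA. In OE, NDRG1 was at 14.6 ± 2.57 FPKM and VEGFA at 17.4 ± 2.099 FPKM. Of the genes that fell, 3 were thus among the 6 most abundant and CA12 was not.

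**Figure D4:**
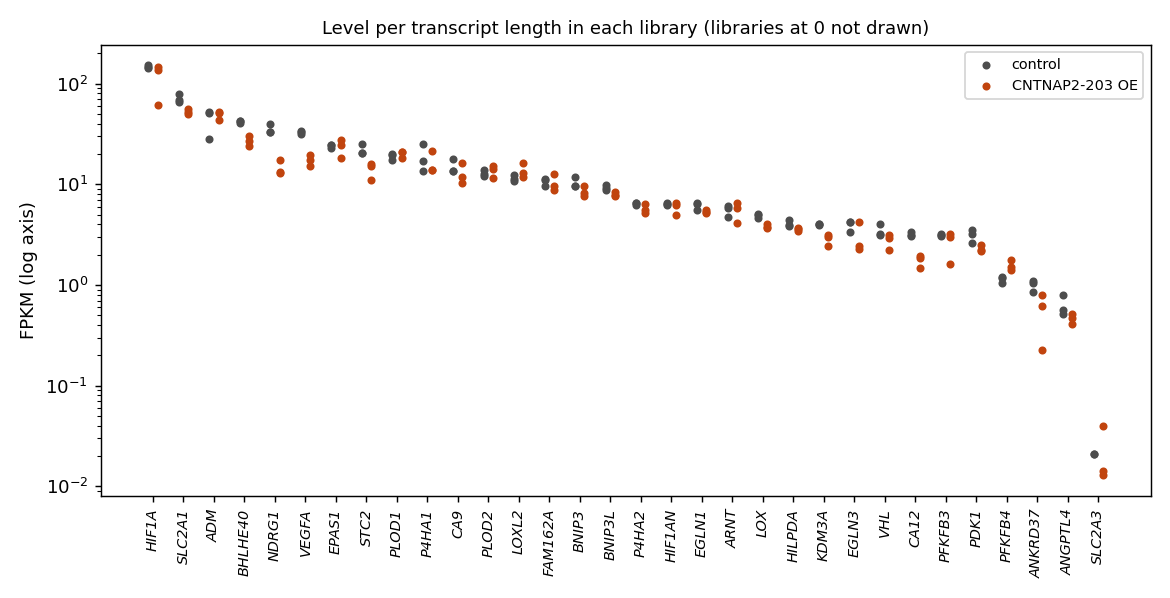
FPKM, a level per length (log axis), of the 32 genes in each control (grey) and OE (orange) library, in the order of the control means. HIF1A leads at 148 FPKM in controls, and SLC2A3 is last at or near 0.

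Further genes of the pathway were read from fixed lists. Of 17 other genes that act on HIF, 16 were tested, and 1 rose and none fell, against 0.798% and 0.596% of all tested genes. At an unadjusted p under 0.05, 4 were higher and 1 lower, against 9.41% and 7.84%. HSP90AA1, the inducible chaperone that stabilises HIF1A among many other proteins, had 1343, 1505 and 1422 CPM in the controls and 2541, 2591 and 2644 CPM in OE. The groups were far apart, 1.82-fold (log2 fold change 0.86, SE 0.0923, adjusted p = 0.0110), and HSP90AA1 no longer passed when a control or OE replicate 1 was left out (adjusted p = 0.0572 to 0.1005). The next by p were its relative HSP90AB1 (log2 fold change 0.42, adjusted p = 0.0641) and RBX1, the ring subunit of the VHL ligase (0.55, adjusted p = 0.131), neither of which passed in edgeR. DESeq2 called 3 of the list higher, these 2 among them (adjusted p = 0.00157 and 0.0354), beside 4.26% of all genes. HSP90AB1 passed in edgeR without OE replicate 3 (adjusted p = 0.0207). Each limma test called 1 higher, beside 0.703% of all genes for limma-voom and 0.447% for limma on the deposited log2 values.

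Of 36 other genes known to be induced by hypoxia, 35 were tested and none was called by edgeR. At an unadjusted p under 0.05, 9 were lower and 7 higher, against 7.84% and 9.41% of all tested genes. The median log2 fold change was -0.16. DESeq2 called 4 lower and 2 higher, beside its 2.85% and 4.26% over all genes, while neither limma test called any. The smallest p were those of VLDLR, a lipoprotein receptor (log2 fold change -0.59, adjusted p = 0.0702), and TMEM45A, a membrane protein (0.64, adjusted p = 0.0740). For VLDLR every OE library was below every control, and for TMEM45A every one was above.

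Of the VEGF ligands and receptors besides VEGFA, 5 of 9 were tested and none was called by edgeR. An unadjusted p under 0.05 was reached by 1 lower and 3 higher, against 7.84% and 9.41% of all tested genes. DESeq2 called 2 higher, beside 4.26% of all genes, and the limma tests none. VEGFC, the ligand for lymphatic vessels, had 20.1, 15.6 and 14.0 CPM in the controls and 25.4, 29.6 and 30.9 CPM in OE, opposite in direction to VEGFA (log2 fold change 0.79, SE 0.163, adjusted p = 0.0678). It passed in 3 of 9 alternatives that kept all libraries, DESeq2 (adjusted p = 0.0014) and no filter on low counts (adjusted p = 0.0391) among them. With the replicate number as a block, VEGFC did not pass in edgeR (adjusted p = 0.163). Nor did it pass in any of the 6 fits with 1 library left out (adjusted p = 0.080 to 0.260). The coreceptor NRP1 (log2 fold change 0.57, adjusted p = 0.0788) and the placental growth factor PGF (-0.77, adjusted p = 0.153) followed. The receptors KDR, FLT1 and FLT4 had 0 counts in all 6 libraries, where 3 counts would be 0.0708 to 0.0857 CPM.

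Of 17 close relatives of the hypoxia genes, 15 were tested and none was called by edgeR or limma. An unadjusted p under 0.05 was reached by 1 lower and 1 higher, against 7.84% and 9.41% of all tested genes. DESeq2 also called 1 lower and 1 higher, beside its 2.85% and 4.26% over all genes. NDRG3, a relative of NDRG1, had 41.2, 40.1 and 70.5 CPM in the controls and 89.5, 84.9 and 81.5 CPM in OE. Every OE library was above every control, opposite to NDRG1, but control replicate 3 was near the OE libraries (log2 fold change 0.75, SE 0.218, adjusted p = 0.148). Without control replicate 3 it was called higher (adjusted p = 0.0485). STC1, a relative of STC2, was lower by a log2 fold change of -0.82 (adjusted p = 0.102), and PLOD3 followed at 0.20 (adjusted p = 0.317).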

How the data were processed

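The authors deposited raw counts per Ensembl gene and log2 values of FPKM for 6 libraries. From their relation to the counts, the deposited log2 values hold FPKM plus 1: the gene length they imply varied between libraries by a median CV of 0.23% on that reading and of 2.61% without the 1. Per the labels' protocols, TruSeq v2 libraries were made after ribosomal RNA removal. Trim Galore 0.4.4 and hg38 are named per the submitters' processing notes. The aligner, counter, annotation and strand rule were not given in the sources used here. Per the labels, the reverse read file of control replicate 1 was missing, and whether its deposited counts came from both reads is unknown, so this library may have been counted differently from the other 5.

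Counts were fitted with edgeR 4.0.16 in R 4.3.3 (filterByExpr with a minimum count of 10, TMM, robust quasi-likelihood test, group as the only term), with Benjamini-Hochberg adjustment over 18786 genes at a threshold of 0.05. SE was taken as the size of the log2 fold change over the root of the F statistic. Alternatives used DESeq2 1.42.0, limma 3.58.1, other scalings and filters, the replicate number as a term, each library left out, and, added after seeing the data, removal of trends with GC content and transcript length. The fit was tested on simulated counts. The genes and lists were chosen with earlier results of these data known. All genes of the set, those of other lists that passed and the 3 with the smallest p of each list are named, except 1 result that is not reported here. Floors of 3 counts cover counting error only. Positions are from GENCODE 29 and promoters from RefSeq. Of the 32 genes, 22 overlap another annotated gene, VEGFA and BHLHE40 among them, and the library kit named in the labels does not separate the strands.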

Additional observations from a re-analysis of the deposited data

How the results depend on the processing

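The number of genes called was 262. It was 1063 with DESeq2, 165 with limma on the deposited log2 values, 600 with GC and length trends removed (an alternative added after seeing the data), and between 14 and 545 when 1 library was left out. The number of hypoxia genes called lower was 4, and 0 to 5 when 1 library was left out, with 0 without any library other than OE replicate 3. The cause of these changes was not tested. The median log2 fold change of the hypoxia genes stayed between -0.29 and -0.16 in these 6 fits and moved by less than the spread between libraries in the other alternatives. With the replicate number as a block in edgeR, 17 genes were called, 1 of them a hypoxia gene, NDRG1 (adjusted p = 0.0269). VEGFA, CA12 and BHLHE40 did not pass in that fit (adjusted p = 0.0657, 0.125 and 0.146). Libraries of the same number in the 2 groups had correlations of deviations of -0.0824, 0.0454 and -0.0283. Those of unlike numbers ranged from -0.0825 to 0.11. With so few libraries these values cannot show whether equal numbers share a culture or day, and the labels do not say.

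Signs changed only for genes that passed in no setting. FAM162A was at -0.011 with limma-voom, -0.042 on the deposited log2 values, -0.031 with library size alone, -0.0047 with the replicate block and -0.00097 without GC and length trends. ARNT was at -0.024 on the deposited log2 values and -0.015 with library size alone, EPAS1 at 0.046 and HIF1AN at 0.10 without GC and length trends. With 1 library left out, signs also changed for FAM162A (-0.20 to 0.13), ARNT (-0.092 to 0.16), EPAS1 (-0.12 to 0.12), ADM (-0.040 to 0.34) and P4HA1 (-0.41 to 0.14). Low counts limit ANKRD37, ANGPTL4 and SLC2A3.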
